A study of Rattus norvegicus with 6 samples.

Results

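Toll-like receptors, their co-receptors and the adaptors and kinases that receive their signal were measured as transcripts in cultured rat (Rattus norvegicus) cells labelled as primary microglia. The group was a fixed list of 10 genes, namely the receptors Tlr2, Tlr3, Tlr4 and Tlr7, the co-receptors Cd14 and Ly96, the adaptors Myd88 and Ticam1, and the kinases Irak1 and Irak4. Of these, 9 had a row among the 16876 gene symbols of the count table, and all 9 passed the filter on low counts that left 11679 genes. Ticam1 was not analysed here.

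The study set cells kept for 24 h with PSNPs, polystyrene nanoplastics, against cells kept for 24 h with IR-813, a near-infrared dye, in 3 libraries each. The labels give no dose, strain, age or sex, the microglia were shaken off mixed cultures, and cells without either agent were not analysed here, so higher or lower means with PSNPs relative to IR-813. The labels do not state whether replicates are separate cultures or animals, and p-values therefore reflect spread among libraries that may be technical. The tables name the IR-813 columns con, and the titles were followed.

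Toll-like receptors bind microbial molecules and products of damaged tissue, and in the brain microglia carry most of them, while astrocytes are known to express Tlr3. Tlr2 and Tlr4 act at the cell surface, Tlr4 together with MD-2 (encoded by Ly96) and CD14, whereas Tlr3 and Tlr7 sense RNA in endosomes. All of them except Tlr3 signal through MyD88, which recruits the kinases IRAK4 and IRAK1, and Tlr3 and Tlr4 signal through TRIF, the product of Ticam1.

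Cd14, Myd88 and Irak4 rose with PSNPs and Tlr7 fell, while Tlr2, Tlr3, Tlr4, Ly96 and Irak1 did not pass the test. Cd14 was 1.84-fold higher, Myd88 1.44-fold and Irak4 1.38-fold, and Tlr7 was 1.9-fold lower, each by edgeR's fit. With 3 members higher and 1 lower of 9 tested, the share called (44.4%) was near that of all 11679 tested genes, of which 41.0% were called, 20.9% higher and 20.1% lower. The median log2 fold change of the 9 members was −0.18, beside −0.01 over all tested genes. On leaving out PSNPs replicate 3 it was −0.06, beside 0 over all tested genes, and on leaving out IR-813 replicate 3 −0.09, beside −0.01. With a length offset it was −0.01, beside 0.09 over all tested genes. Of all calls 50.9% were higher, and 40.5% with library size only and 63.0% with this offset, which takes out in each library the trend with transcript length. The group as a whole therefore did not stand apart from the other genes by its count, and the results are those of its single members.

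Sequences before the transcription start are shown for the 4 members that passed the test, since their transcripts moved in these libraries. They are RefSeq sequences of the rat build GRCr8, from 250 bases before to 50 bases after the start in that table, which held 8 of the 9 measured members. The windows are chr18:28611109-28611408 on the minus strand for Cd14, chr8:127956181-127956480 on the minus strand for Myd88, chr7:127561527-127561826 on the plus strand for Irak4 and chrX:30644176-30644475 on the plus strand for Tlr7. Capitals mark matches, on either strand, to a core of PU.1, the lineage factor of macrophages and microglia (GAGGAA), to an AP-1 site (TGANTCA), to an interferon-stimulated response element (a pair of GAAA repeats with 2 bases between them) or to the NF-kB consensus.
Cd14: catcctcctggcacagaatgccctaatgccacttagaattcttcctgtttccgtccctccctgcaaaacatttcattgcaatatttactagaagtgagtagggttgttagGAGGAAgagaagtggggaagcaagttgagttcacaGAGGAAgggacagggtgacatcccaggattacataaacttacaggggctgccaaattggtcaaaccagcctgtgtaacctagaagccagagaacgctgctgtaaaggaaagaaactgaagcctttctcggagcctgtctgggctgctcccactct
Myd88: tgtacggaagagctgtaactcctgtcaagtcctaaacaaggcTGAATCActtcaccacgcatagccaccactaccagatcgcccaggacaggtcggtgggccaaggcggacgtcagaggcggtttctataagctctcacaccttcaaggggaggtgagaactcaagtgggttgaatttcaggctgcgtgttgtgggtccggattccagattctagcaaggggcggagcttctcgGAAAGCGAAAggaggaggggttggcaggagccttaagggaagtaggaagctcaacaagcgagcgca
Irak4: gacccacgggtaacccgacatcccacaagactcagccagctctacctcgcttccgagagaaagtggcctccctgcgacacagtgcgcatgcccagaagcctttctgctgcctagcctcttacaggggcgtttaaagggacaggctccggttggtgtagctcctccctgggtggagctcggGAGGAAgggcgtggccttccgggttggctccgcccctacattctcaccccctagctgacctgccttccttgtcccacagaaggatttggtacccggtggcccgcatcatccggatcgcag
Tlr7: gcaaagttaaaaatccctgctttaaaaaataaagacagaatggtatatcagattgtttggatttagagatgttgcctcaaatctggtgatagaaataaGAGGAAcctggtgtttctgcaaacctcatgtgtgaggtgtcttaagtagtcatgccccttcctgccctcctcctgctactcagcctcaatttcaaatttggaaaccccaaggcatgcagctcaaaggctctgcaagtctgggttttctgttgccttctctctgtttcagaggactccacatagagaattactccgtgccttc
Cd14 held the PU.1 core at −140 and −105, counted from the start with −1 as the base before it. Irak4 held it at −70 and Tlr7 at −152. Myd88 had no PU.1 core in this window, but an AP-1 site at −208 and an interferon-response match at −16. Across the 8 members with a window, 5 held the PU.1 core (Cd14, Irak4, Tlr3, Tlr4 and Tlr7), against 27.6% of 33469 rat promoter windows of the same length. The AP-1 site is in 7.33% and the interferon-response match in 3.92% of all windows, and Myd88 was the only member with either. The NF-kB consensus, present in 4.18% of windows, was matched in Tlr2 only, by overlapping matches at −206 and −205. Left in lower case, an SP1 site (GGGCGG) was found in 3 of the 8 windows and in 33.1% of all windows, and a TATA box (TATAAA) in 0 of the 8 and in 14.2% of all. Matches of different motifs did not overlap. A PU.1 core stood both before members that rose and before Tlr7, which fell.

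The libraries held between 19166605 and 22553507 counts. Markers other than those of microglia were abundant. The astrocyte gene Gfap ranked between 7 and 18 and the myelin gene Mbp between 21 and 56 among all genes by count, but the microglia genes Aif1 and Cx3cr1 only between 3796 and 8385. The summed level of 12 microglia markers lay between 666.5 and 875 CPM (counts per 1000000 on TMM-scaled library sizes) with PSNPs and between 1079 and 1450 CPM with IR-813, without overlap. Of these 12 markers 8 fell, 4 did not pass and none was at 0 counts throughout. For 10 astrocyte markers, of which 5 rose and 1 fell, the sums were 7799 to 8609 CPM with PSNPs and 6546 to 8361 CPM with IR-813. For 6 markers of border-associated macrophages, which also carry these receptors, they were 23.1 to 37.3 CPM with PSNPs and 104 to 139 CPM with IR-813, where 3 of 4 tested fell and Cd163 was at 0 throughout. Sums for 10 oligodendrocyte-lineage markers, of which 10 fell, were 3476 to 3969 CPM with PSNPs and 6496 to 7565 CPM with IR-813. The sums for 8 neuron markers, of which 6 fell, were 162 to 194 CPM with PSNPs and 379.8 to 393 CPM with IR-813. For 7 fibroblast, pericyte and endothelial markers, of which 2 fell and Col1a2 was at 0 throughout, they were 44.9 to 57.2 CPM with PSNPs and 70.7 to 101 CPM with IR-813. For 8 markers of infiltrating myeloid and lymphoid cells, 6 of them at 0 in every library, the sum stayed at or under 0.159 CPM with PSNPs and at or under 0.0463 CPM with IR-813. Rows at 0 do not show that a cell type was absent. Col1a2 was at 0 where Col1a1 had 324 to 1078 counts, and whether such rows lost reads in counting was not tested. In bulk RNA, fewer cells of a type and less RNA per cell cannot be told apart, and the part of these shifts in the values below was not tested.

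PSNPs replicate 3 stood apart from the other PSNPs libraries. Its log2 CPM correlated across the tested genes at 0.975 and 0.973 with PSNPs replicates 1 and 2, which correlated at 0.996 with each other. Its difference from them followed a proxy of transcript length, with a Spearman correlation across 11520 genes of −0.573, so that long transcripts were lower in it. The log2 fold change of PSNPs against IR-813 also followed this proxy, with a Spearman correlation of −0.305 across the same genes. With the length offset, log2 fold changes were −0.13 for Tlr2, 0.09 for Tlr3, −0.08 for Tlr4, −0.68 for Tlr7 and −0.42 for Ly96. They were −0.01 for Irak1, 0.82 for Cd14, 0.6 for Myd88 and 0.56 for Irak4, beside a median of 0.09 over all tested genes. The same members were called as in the main fit. Beyond this fit, the part of length in the changes of single members was not tested. Genes are not independent replicates, and both correlations are a description. Of the 9 members, 6 were lower in PSNPs replicate 3 than in both other PSNPs libraries, as were 44.1% of all tested genes.

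**Figure D1:**
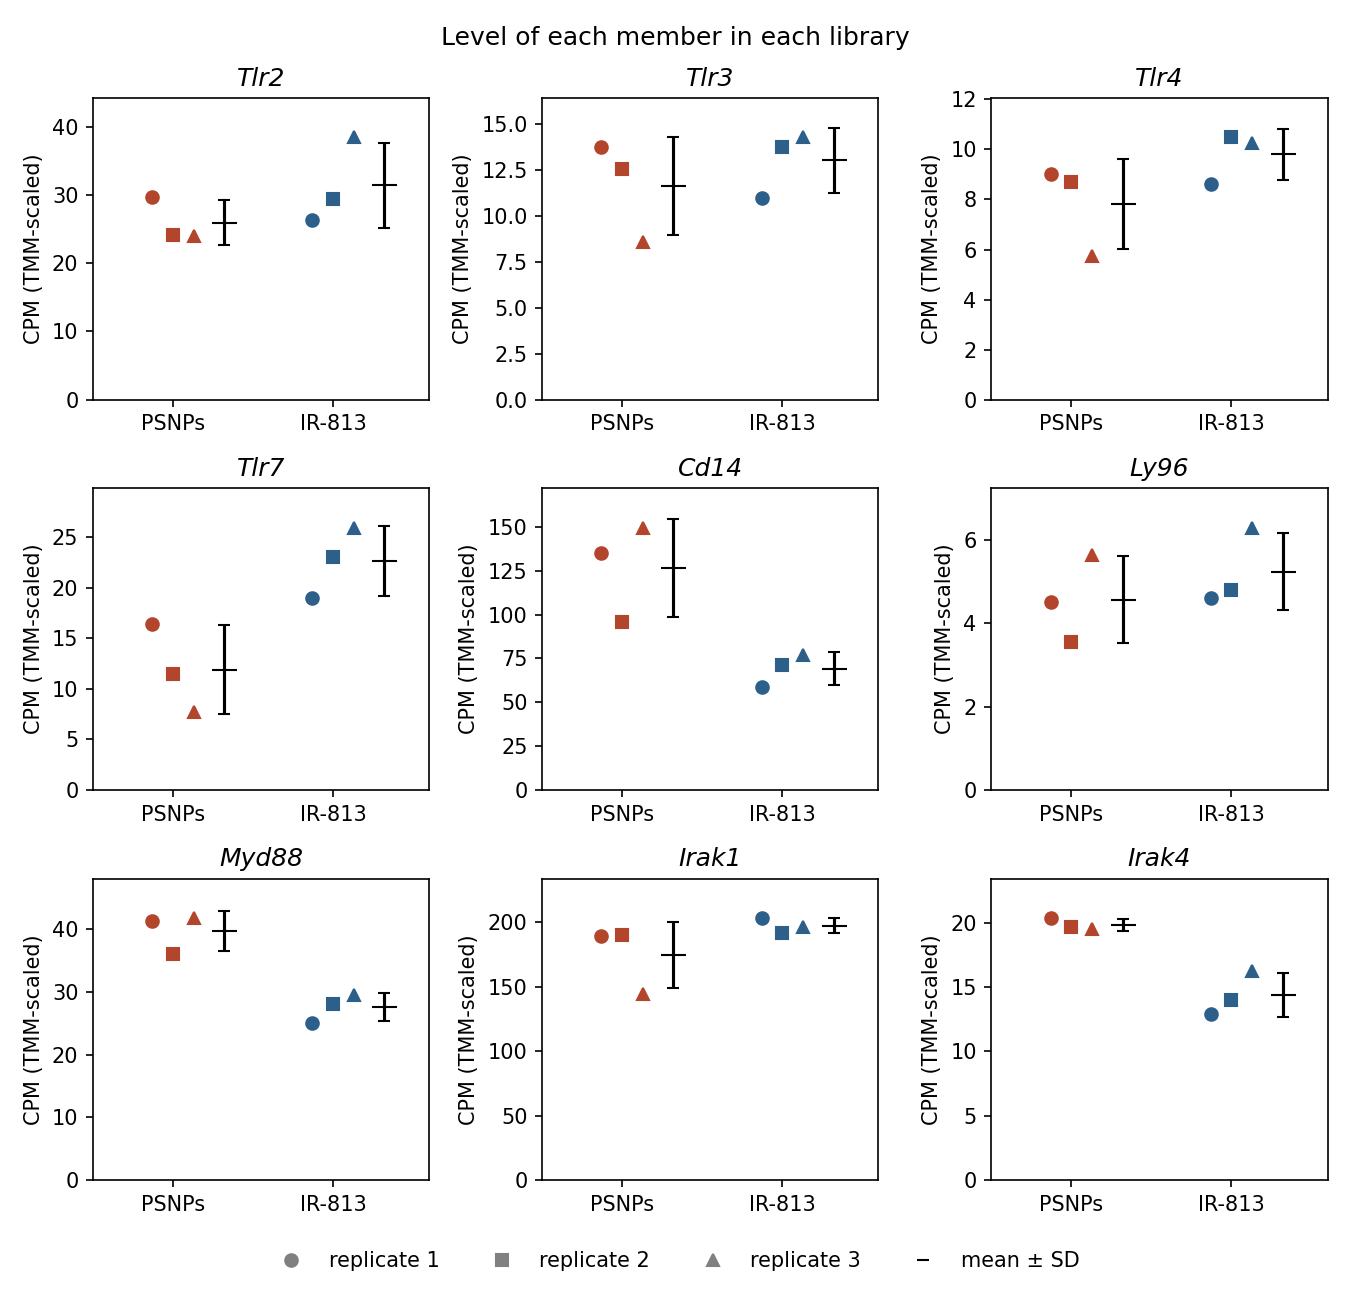
Level of the 9 measured members in each library, in CPM on TMM-scaled library sizes, with PSNPs at the left and IR-813 at the right of each panel, a symbol per replicate number, and the mean with its SD over 3 libraries beside them. Cd14, Myd88 and Irak4 lie higher in every PSNPs library than in any IR-813 library, and Tlr7 lies lower.

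Cd14, the co-receptor that hands lipopolysaccharide to the Tlr4 complex, changed most among the members that rose. It had 135, 95.7 and 149.6 CPM in PSNPs replicates 1 to 3, against 58.7, 71.4 and 77.2 CPM in IR-813 replicates 1 to 3. The lowest PSNPs library lay above the highest IR-813 library. Cd14 averaged 127 ± 27.9 CPM with PSNPs and 69.1 ± 9.44 CPM with IR-813 (SD, n = 3 each), a log2 fold change of 0.88 ± 0.18 (estimate ± SE) with an edgeR adjusted p of 0.00926. It passed in all 14 alternative fits, with values between 0.74 and 1.05.

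Ly96, which encodes the lipid-binding partner of Tlr4, was thinly covered, with 98, 67 and 108 counts in PSNPs replicates 1 to 3 and 103, 103 and 136 counts in IR-813 replicates 1 to 3. These were 4.5, 3.56 and 5.63 CPM with PSNPs, against 4.61, 4.8 and 6.29 CPM with IR-813, so that the groups overlapped. Its log2 fold change of −0.20 ± 0.22 had an edgeR adjusted p of 0.493. Leaving out PSNPs replicate 3 gave −0.37, leaving out PSNPs replicate 2 or IR-813 replicate 3 gave −0.04, and the length offset gave −0.42, none of them called.

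Tlr4, the receptor for lipopolysaccharide, had 9.01, 8.7 and 5.74 CPM in PSNPs replicates 1 to 3, against 8.64, 10.5 and 10.3 CPM in IR-813 replicates 1 to 3. PSNPs replicate 3 was the lowest, and the other PSNPs libraries lay within the range of IR-813. Tlr4 had a log2 fold change of −0.32 ± 0.20 with an edgeR adjusted p of 0.223. Leaving out PSNPs replicate 3 gave −0.14, and 13 alternatives gave values between −0.44 and −0.08.

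Within a library the ratio of the counts of a pair of genes does not depend on how libraries are scaled to each other. Cd14 had 30, 26.9 and 26.6 counts per Ly96 count in PSNPs replicates 1 to 3, against 12.7, 14.9 and 12.3 in IR-813 replicates 1 to 3. Against Tlr4, the ratio was 15, 11 and 26.1 with PSNPs and 6.8, 6.81 and 7.51 with IR-813. Against Tlr2 it was 4.54, 3.97 and 6.22 with PSNPs and 2.23, 2.43 and 2.01 with IR-813. For each of these 3 ratios the groups did not overlap, whereas the ratio of Ly96 to Tlr4 overlapped, with 0.5, 0.409 and 0.982 in PSNPs libraries and 0.534, 0.458 and 0.613 in IR-813 libraries. Cd14 thus stood higher relative to both other genes of the lipopolysaccharide complex, which did not part from each other. An exact 2-sided test of 3 against 3 cannot go below 0.1, and none was made on the ratios.

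Tlr2, which forms receptors for bacterial lipoproteins with Tlr1 or Tlr6, had 29.7, 24.1 and 24.1 CPM in PSNPs replicates 1 to 3, against 26.4, 29.4 and 38.4 CPM in IR-813 replicates 1 to 3. The groups overlapped, and IR-813 replicate 3 was the highest. For Tlr2 the log2 fold change was −0.27 ± 0.17 with an edgeR adjusted p of 0.228, and on leaving out IR-813 replicate 3 it was −0.10 with 0.618.

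Tlr7, the endosomal receptor for single-stranded RNA, had 16.5, 11.5 and 7.72 CPM in PSNPs replicates 1 to 3, against 19.02, 23.01 and 25.95 CPM in IR-813 replicates 1 to 3. All PSNPs libraries were lower than all IR-813 libraries, and PSNPs replicate 3 was the lowest. Tlr7 averaged 11.9 ± 4.38 CPM with PSNPs and 22.7 ± 3.48 CPM with IR-813 (SD, n = 3 each). The log2 fold change was −0.93 ± 0.27 with an edgeR adjusted p of 0.0311, and the PSNPs libraries varied more for Tlr7 than for any other member, with a coefficient of variation of 36.8%. The call was lost on leaving out any of 4 libraries: the adjusted p became 0.0719 for PSNPs replicate 2 and 0.0552, 0.0891 and 0.103 for IR-813 replicates 1, 2 and 3. Leaving out PSNPs replicate 3 gave −0.69 and 0.0127. Across 14 alternatives the estimate stayed between −1.23 and −0.68 and the adjusted p between 0.00273 and 0.103. Relative to Tlr4, Tlr7 had 1.83, 1.32 and 1.35 counts per count in PSNPs libraries and 2.2, 2.2 and 2.53 in IR-813 libraries, without overlap.

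Tlr3, the endosomal receptor for double-stranded RNA, had 13.7, 12.6 and 8.61 CPM in PSNPs replicates 1 to 3, against 11.01, 13.8 and 14.3 CPM in IR-813 replicates 1 to 3. Again PSNPs replicate 3 was lowest and the other libraries overlapped. At −0.16 ± 0.20, its log2 fold change had an edgeR adjusted p of 0.548, and it was 0.02 without PSNPs replicate 3 and 0.09 with a length offset. With that offset the median of all tested genes was also 0.09.

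The adaptor and kinase genes below the receptors split. Myd88, the adaptor of all these receptors except Tlr3, had 41.3, 36.0 and 41.7 CPM in PSNPs replicates 1 to 3, against 25.1, 28.0 and 29.5 CPM in IR-813 replicates 1 to 3, with no overlap. It averaged 39.7 ± 3.20 CPM with PSNPs and 27.5 ± 2.27 CPM with IR-813 (SD, n = 3 each). The log2 fold change was 0.53 ± 0.11 with an edgeR adjusted p of 0.00874, and it passed in all 14 alternative fits with values from 0.45 to 0.6.

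Irak4, the kinase that joins MyD88 first, had 20.4, 19.6 and 19.5 CPM in PSNPs replicates 1 to 3, against 12.9, 14.02 and 16.3 CPM in IR-813 replicates 1 to 3. The PSNPs libraries lay close together, with a coefficient of variation of 2.31%, and all above those with IR-813. The log2 fold change was 0.46 ± 0.12 with an edgeR adjusted p of 0.0202. Leaving out PSNPs replicate 1 made the adjusted p 0.0617, leaving out IR-813 replicates 1 or 2 made it 0.0858 or 0.0916, and the 14 alternatives spanned 0.00561 to 0.0916.

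Irak1, the kinase that IRAK4 phosphorylates, had 189.6, 189.9 and 145 CPM in PSNPs replicates 1 to 3, against 203.5, 192 and 197 CPM in IR-813 replicates 1 to 3. PSNPs replicates 1 and 2 were just under the lowest IR-813 library, and PSNPs replicate 3 was well under it. The log2 fold change was −0.18 ± 0.12 with an edgeR adjusted p of 0.265, and −0.06 without PSNPs replicate 3. The count ratio of Irak1 to Irak4 was 9.31, 9.67 and 7.42 in PSNPs libraries and 15.7, 13.7 and 12.1 in IR-813 libraries, without overlap, whereas the ratio of Myd88 to Irak4 overlapped, with means of 2.0 ± 0.155 with PSNPs and 1.92 ± 0.0955 with IR-813 (SD, n = 3 each). Counting Irak1 and Tlr7 as below and Cd14, Myd88 and Irak4 as above, the groups did not overlap for 2 and 3 of the 9 members, beside 31.4% and 30.0% of all tested genes.

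**Figure D2:**
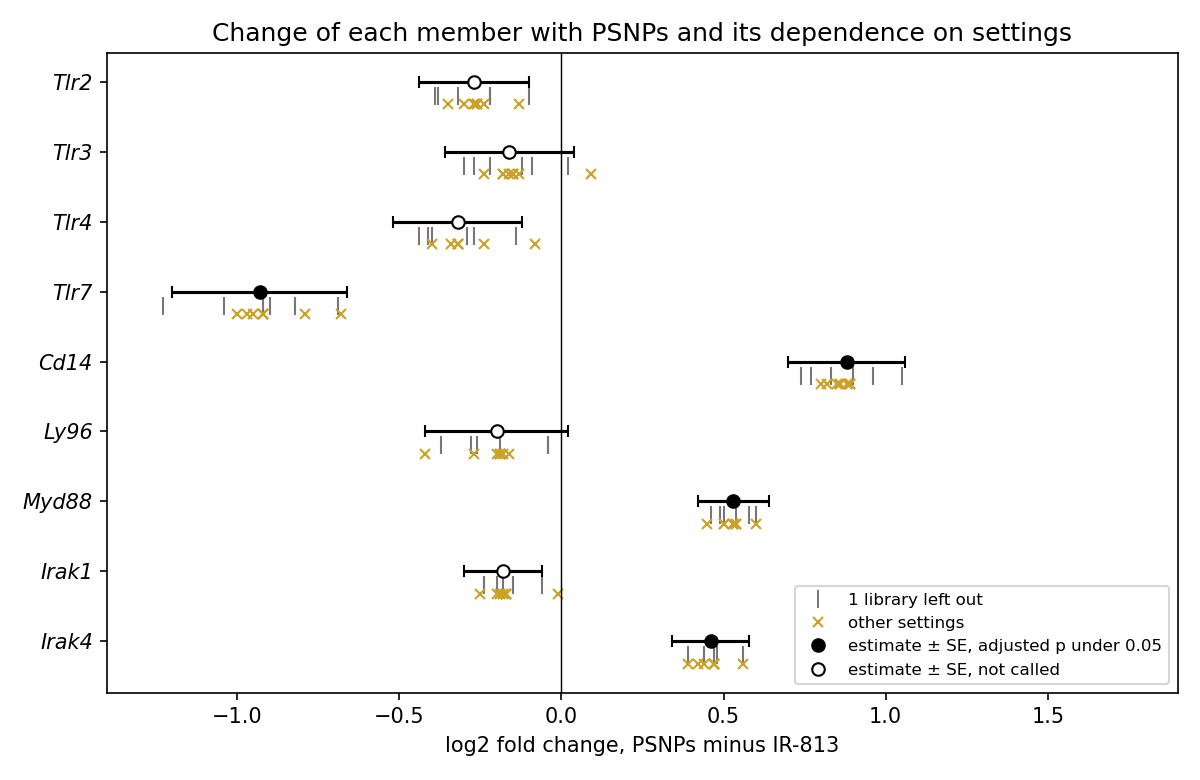
Log2 fold change of each member, PSNPs minus IR-813, with its SE (circles, filled where the edgeR adjusted p was under 0.05), fits with 1 library left out (grey ticks) and the other alternative settings (crosses). Every setting leaves Cd14, Myd88 and Irak4 above 0 and Tlr7 below 0, and Tlr3 crosses 0.

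Set against the microglia markers of the same library, the members fell into other places. Per 1000 summed counts of the 12 microglia markers, Cd14 had 155, 144 and 178 counts in PSNPs replicates 1 to 3, against 54.4, 55.6 and 53.2 in IR-813 replicates 1 to 3. Myd88 had 47.2, 54 and 49.7 with PSNPs, against 23.2, 21.8 and 20.4 with IR-813, and Irak4 had 23.3, 29.5 and 23.3 with PSNPs, against 12, 10.9 and 11.2 with IR-813. Tlr7 had 18.8, 17.3 and 9.2 with PSNPs, against 17.6, 17.9 and 17.9 with IR-813. On this measure Tlr7 in PSNPs replicates 1 and 2 was at the level of IR-813, and PSNPs replicate 3 alone lay lower. Tlr2, with 34, 36.1 and 28.7 in PSNPs libraries and 24.4, 22.9 and 26.5 in IR-813 libraries, and Ly96, with 5.15, 5.33 and 6.72 in PSNPs libraries and 4.27, 3.74 and 4.34 in IR-813 libraries, lay above IR-813 without overlap. Of the 9 members, 5 were above without overlap, none was below, and Tlr3, Tlr4, Tlr7 and Irak1 overlapped. The summed level of the markers was itself lower in every PSNPs library than in any IR-813 library. The ratio therefore rises for a gene whose own level did not change. How many of all tested genes part the groups on it was not computed, so the 5 are not a result particular to the members. The markers themselves fell by different amounts, so this ratio is a description and no correction for the number of microglia.

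**Figure D3:**
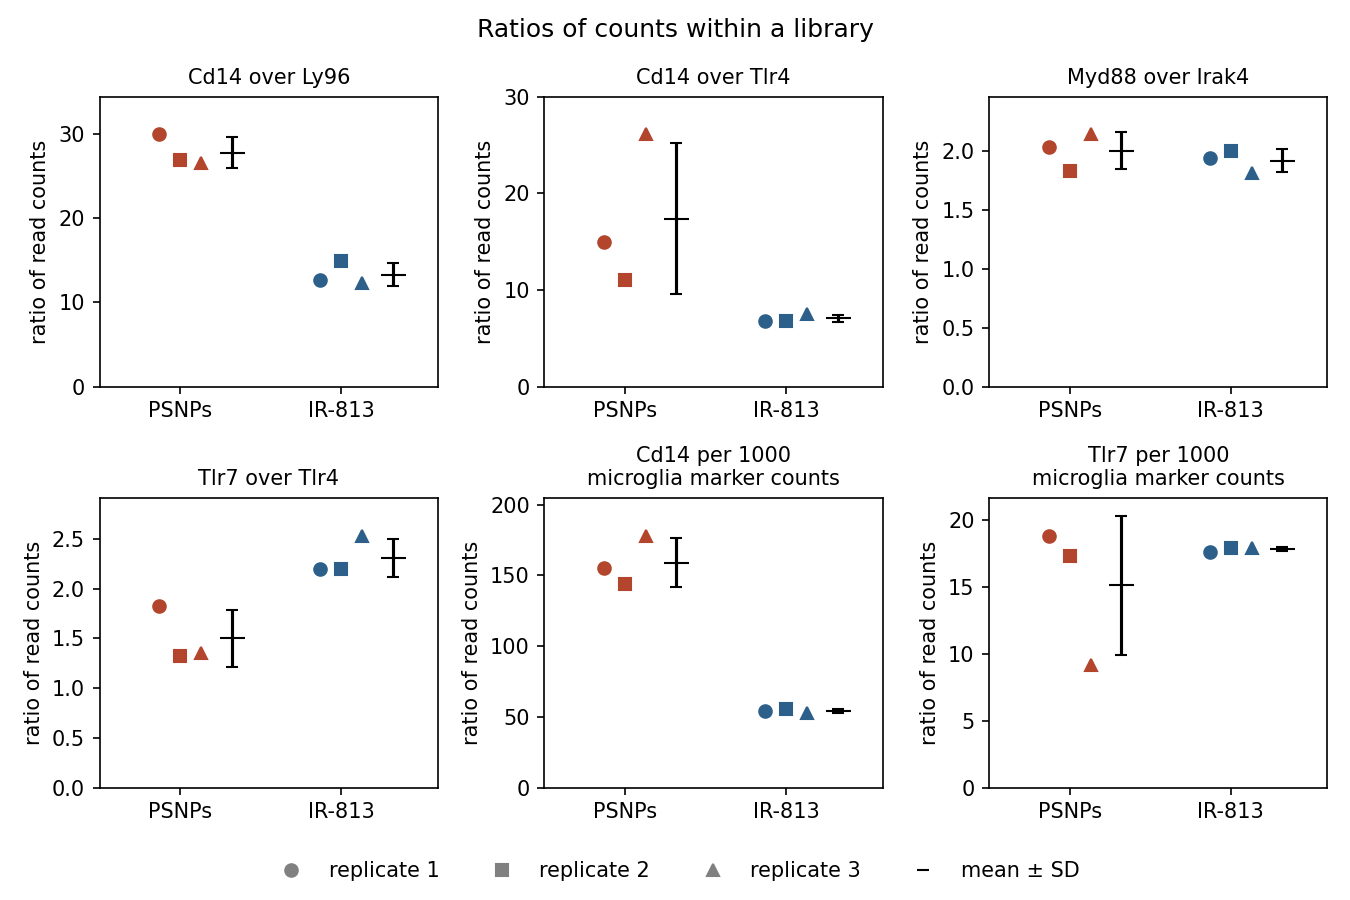
Ratios of read counts within each library, with PSNPs at the left and IR-813 at the right, a symbol per replicate number, and the mean with its SD over 3 libraries. Cd14 over Ly96 and Cd14 per 1000 microglia marker counts part the groups, while Myd88 over Irak4 and Tlr7 per 1000 microglia marker counts overlap.

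Levels of different genes were compared on the authors' deposited scale, on which the unlogged value divided by the count was close to the product of a factor for the library and a factor for the gene, the second of which was read as transcript length. By mean of the unlogged values, the order with PSNPs was Cd14 (92.5 ± 21.8), Irak1 (65.3 ± 8.52), Ly96 (43.1 ± 13.4), Myd88 (19.3 ± 1.79), Tlr2 (10.3 ± 1.20), Irak4 (8.90 ± 0.160), Tlr3 (3.48 ± 0.749), Tlr7 (3.46 ± 1.23) and Tlr4 (2.37 ± 0.510). With IR-813 it was Irak1 (73.5 ± 2.16), Cd14 (49.97 ± 6.81), Ly96 (47.5 ± 8.76), Myd88 (13.3 ± 1.09), Tlr2 (12.4 ± 2.48), Tlr7 (6.59 ± 1.00), Irak4 (6.43 ± 0.755), Tlr3 (3.89 ± 0.523) and Tlr4 (2.96 ± 0.303), all as SD over 3 libraries. With PSNPs, the library values of the neighbours Cd14 and Irak1, Irak1 and Ly96, Tlr3 and Tlr7, and Tlr7 and Tlr4 overlapped. With IR-813, those of Cd14 and Ly96, Myd88 and Tlr2, and Tlr7 and Irak4 did, and all other neighbours in the order were apart. Cd14 stood above Irak1 in PSNPs replicates 1 and 3, and below it in PSNPs replicate 2 and in all IR-813 libraries. The place of Ly96 rests on a length proxy of 0.0523 times that of the median gene, the shortest of the members, and is the least certain.

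The other genes of the family and its pathway were taken from 8 lists with 99 genes, of which 92 were in the table and 81 were tested. Of these, 16 rose and 19 fell, a share of 43.2% called, near the 41.0% of all tested genes. Leaving out PSNPs replicate 3 gave 22 higher and 30 lower, and leaving out IR-813 replicate 1 or 2 gave 10 higher. The main-fit counts of each list below stand beside 20.9% higher and 20.1% lower over all tested genes. More of all genes were called on leaving out PSNPs replicate 3, and fewer on leaving out IR-813 replicate 1 or 2. List counts from fits with 1 library left out therefore do not stand beside these shares, and are no result particular to a list.

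Of the 8 tested Toll-like receptor genes, including the 4 members, 4 fell (Tlr1, Tlr7, Tlr8 and Tlr9) and 0 rose by edgeR's test, also at an unadjusted p under 0.05 and by DESeq2, and the estimates of all 8 were below 0, except for Tlr3 without PSNPs replicate 3 or with a length offset. Without IR-813 replicate 3, 2 of the 8 were called lower. Of all tested genes, 20.1% were called lower and 20.9% higher in the main fit. The median of the 8 receptor genes was −0.75, and that of the 12 microglia markers, of which 8 fell, was also −0.75. Whether these are linked was not tested. Tlr8, which in humans also senses single-stranded RNA and is the neighbour of Tlr7 on chromosome X with no gene between them in the RefSeq table of GRCr8, had 8.14, 8.92 and 4.12 CPM in PSNPs libraries, against 13.8, 16.1 and 19.01 CPM in IR-813 libraries. Its log2 fold change was −1.21 ± 0.28 with an edgeR adjusted p of 0.0146, while leaving out IR-813 replicate 3 gave −1.08 and 0.0558, the highest adjusted p of 14 alternatives, whose lowest was 0.000146. Tlr9, the endosomal receptor for unmethylated CpG DNA, had 55, 33 and 25 counts in PSNPs libraries, against 94, 77 and 104 counts in IR-813 libraries, a log2 fold change of −1.16 ± 0.26 (adjusted p 0.0115). Tlr1, a partner of Tlr2, had 6, 1 and 5 counts in PSNPs libraries, against 16, 20 and 37 counts in IR-813 libraries, and its fitted fold depends on these low counts (−2.45 ± 0.56, adjusted p 0.0127). Tlr1 passed the filter on low counts only through IR-813, where it was higher. Its fall therefore does not add support to the count of receptors that fell. Tlr6, the other partner, averaged 4.97 ± 0.834 CPM with PSNPs and 7.45 ± 2.21 CPM with IR-813 (SD, n = 3 each) and had an edgeR adjusted p of 0.0991. Tlr5, Tlr11 and Tlr12 had at most 21 counts in any library and Tlr10 had 0 in all, and these 4 were not tested.

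Of the 12 accessory proteins and chaperones, 3 rose and 2 fell. Cd36, a scavenger receptor that presents ligands to Tlr2 with Tlr6, rose to 8.93 ± 1.43 CPM with PSNPs, against 0.569 ± 0.329 CPM with IR-813 (SD, n = 3 each). Hsp90b1, the chaperone gp96 that folds these receptors, rose by 0.49 ± 0.08 on the log2 scale. Slc15a4, an endolysosomal transporter needed for Tlr7 and Tlr9 signalling in mice, fell to 47.7 ± 3.25 CPM with PSNPs, against 83.0 ± 4.13 CPM with IR-813 (SD, n = 3 each). The count higher was 5 without PSNPs replicate 3. The count lower was 1 on leaving out PSNPs replicate 1 or 2 or IR-813 replicate 2 or 3, and 4 by DESeq2.

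None of the 3 other adaptors tested passed by edgeR in the main fit, with 1 at an unadjusted p under 0.05 and 0 called by DESeq2. Ticam2, the bridging adaptor between Tlr4 and TRIF, stood at −0.34 ± 0.13, the negative regulator Sarm1 at −0.12 ± 0.15 and Pik3ap1, a link to PI3-kinase, at −0.49 ± 0.29 on the log2 scale. Ticam2 was called lower in 1 of 14 alternatives, library size only (−0.42, edgeR adjusted p 0.0416), where the median of all tested genes was −0.09. The other IRAK genes also did not pass, with Irak2 at −0.09 ± 0.14 and Irak3, an inhibitory member of that family, at −0.29 ± 0.15. With the length offset Sarm1 was at 0.20 and Irak2 at 0.12, beside a median of 0.09 over all tested genes. Sarm1 was at 0.01 without PSNPs replicate 3 and Irak2 at 0.03 without PSNPs replicate 2. Pik3ap1 was at −0.80 without PSNPs replicate 1 and −0.24 without PSNPs replicate 3, Irak3 was at −0.17 without PSNPs replicate 3, and none of these values was called.

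Of 17 tested kinases and ubiquitin ligases below the adaptors, 1 rose and 1 fell, and without PSNPs replicate 3 there were 4 and 6. Peli1, a ubiquitin ligase that acts on IRAK proteins, fell to 35.01 ± 7.22 CPM with PSNPs, against 72.6 ± 6.38 CPM with IR-813 (SD, n = 3 each). Ube2v1, a cofactor of the ubiquitin-conjugating step at TRAF6, was at 0.33 ± 0.09, with an adjusted p of 0.0294. That p became 0.115, 0.106 and 0.0649 on leaving out IR-813 replicates 1, 2 and 3 in turn and 0.0728 with library size only, and spanned 0.00367 to 0.115 in 14 alternatives. Chuk, which encodes an IkB kinase, missed the threshold (−0.38 ± 0.13, adjusted p 0.0508, with 0.00242 to 0.236 in the alternatives, the lowest being without PSNPs replicate 3).

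Of 10 transcription factors, 2 rose and 5 fell. The genes with the smallest p were Jun (−0.51 ± 0.11), Irf8, a factor of the microglial lineage (−0.84 ± 0.20), and Fos (−0.40 ± 0.10). The adjusted p of Fos was 0.0163, between 0.0539 and 0.0843 on leaving out replicate 1 or 2 of either group, and at its lowest, 0.000363, without PSNPs replicate 3. For Jun it was 0.00908, with 0.00118 to 0.106 in the alternatives, the highest with the length offset. None of this list was called higher without PSNPs replicate 1 or IR-813 replicate 1 or 2, and 1 without IR-813 replicate 3 or by DESeq2. For those called lower, the count was 3 without replicate 1 and 2 without replicate 2 of either group. Without PSNPs replicate 3 the list had 3 higher and 6 lower, and with the length offset 4 and 4. The largest change of the list was the rise of Irf7 (1.9 ± 0.47, edgeR adjusted p 0.0179), named after its value was seen.

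Of 13 negative regulators, 3 rose and 5 fell, and without PSNPs replicate 3 the counts were 3 and 8. Dusp1, a phosphatase of MAP kinases, fell to 18.98 ± 1.29 CPM with PSNPs, against 106 ± 24.4 CPM with IR-813 (SD, n = 3 each), and Il1rl1, a receptor of the same superfamily, by 1.29 ± 0.17 on the log2 scale. Tnip1, a partner of the A20 deubiquitinase, rose by 0.80 ± 0.08.

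Of 12 tested targets known from MyD88-dependent signalling, 3 rose and 3 fell, with a median of 0.04, and −0.03 on leaving out PSNPs replicate 3. Nos2 (4.32 ± 0.36), Nfkbiz (1.02 ± 0.12) and Ccl4 (1.19 ± 0.17) had the smallest p, while Il1a, Cxcl2 and Ptgs2, the 3 that fell, were named after their values were seen. Nos2 had 138, 72 and 74 counts in PSNPs libraries, against 4, 4 and 7 counts in IR-813 libraries. It passed the filter on low counts only through PSNPs, and its fitted fold depends on the low counts with IR-813. Of 10 tested targets known from TRIF-dependent signalling, 4 rose and 0 fell by edgeR's test, beside 20.9% and 20.1% of all tested genes. Also 0 fell at an unadjusted p under 0.05 and by DESeq2, and the median was 0.74. The 4 that rose were the chemokine genes Ccl5 (3.05 ± 0.18), Cxcl11 (2.09 ± 0.35) and Cxcl10 (1.25 ± 0.36), and Isg15, named after its value was seen. Cxcl11 had 20, 11 and 17 counts in PSNPs libraries, against 5, 4 and 3 counts in IR-813 libraries. It passed the filter on low counts only through PSNPs, where it was higher, so its rise does not add support to the count. The count higher became 2 on leaving out PSNPs replicate 1 or IR-813 replicate 1 or 2, and 7 on leaving out IR-813 replicate 3. The median of 0.74 became 0.46, 0.42 and 0.48 without the first 3 of these libraries in turn and 1.85 without IR-813 replicate 3. IR-813 replicate 3 was high in several interferon-induced genes of this list. For example, the antiviral gene Mx1 had 408, 377 and 140 counts in PSNPs replicates 1 to 3, against 62, 86 and 460 counts in IR-813 replicates 1 to 3, and Isg15 had 345, 146 and 183 counts with PSNPs, against 65, 50 and 149 counts with IR-813. Mx1 was named after its values were seen and was not called. The adjusted p of Cxcl10 was 0.0317, and 0.09, 0.112 and 0.103 without PSNPs replicate 1 and IR-813 replicates 1 and 2 in turn, with 0.00186 as the lowest of 13 alternatives.

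**Figure D4:**
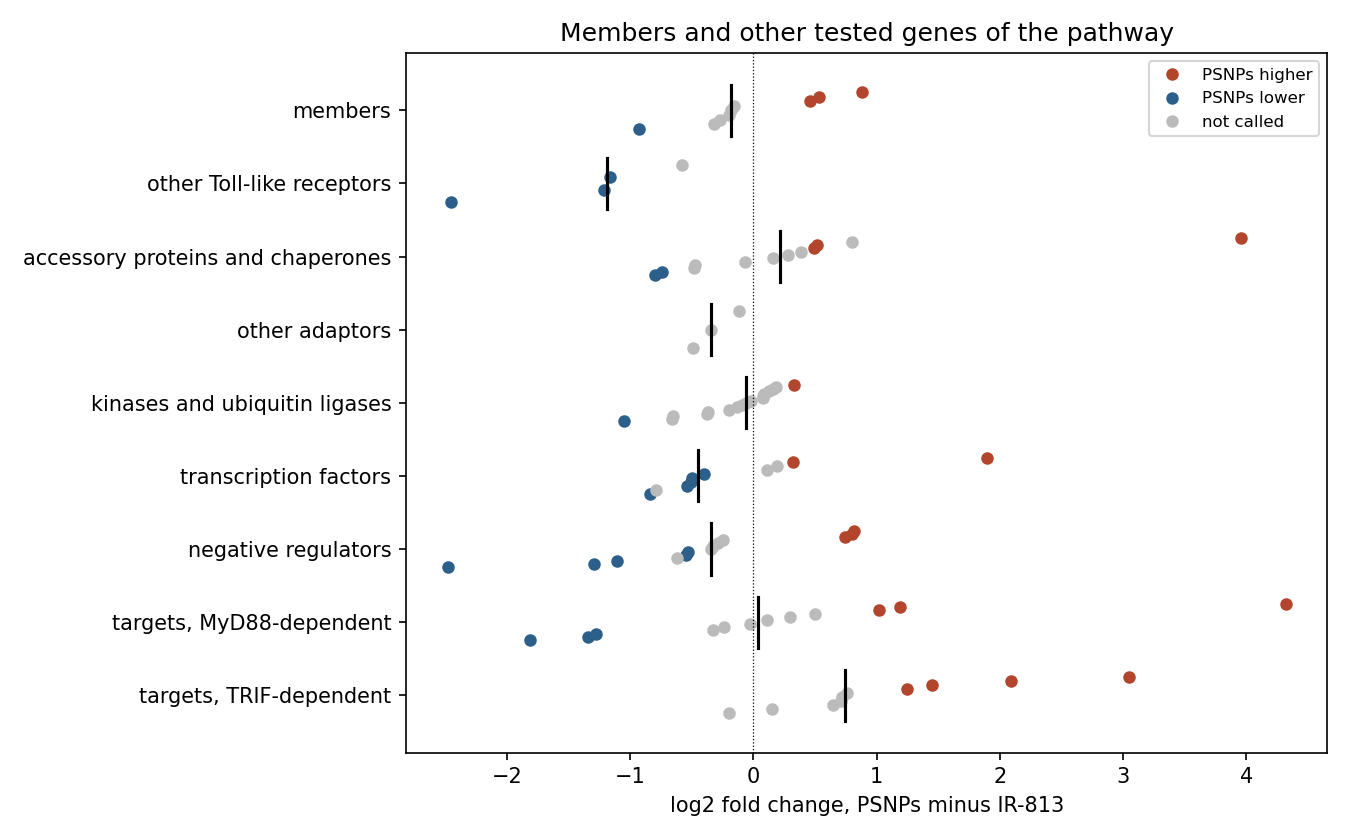
Log2 fold change, PSNPs minus IR-813, of the 9 members and of the 81 tested genes of the 8 pathway lists, a point per gene, coloured by the edgeR call, with the median of each list as a black bar. The members spread on both sides of 0, all 4 tested genes among the other Toll-like receptors lie below 0, and the targets known from TRIF-dependent signalling have a median of 0.74, which lay between 0.42 and 1.85 with 1 library left out. Tlr1 passed the filter on low counts only through IR-813, and Cxcl11 and Nos2 only through PSNPs.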

How the data were processed

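Raw counts of reads per gene, deposited by the authors as 1 table, were the main source. The deposited log2 values, in 1 file a library, have a scaling that the labels do not describe. Per the submitters' processing notes, bcl2fastq and the build mRatBN7.2 were used. Aligner, counter, annotation and strand setting: not given in the sources used here, so reads of overlapping or antisense genes cannot be told apart. Libraries were made from polyadenylated RNA, per the labels' protocols.

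Counts were filtered with filterByExpr, scaled with TMM and tested over all 11679 genes with edgeR 4.0.16 (quasi-likelihood, treatment only, Benjamini-Hochberg, called under 0.05) in R 4.3.3. The SE is the log2 fold change divided by the square root of F. The common coefficient of biological variation was 0.159. Alternatives used DESeq2 1.42.0 size factors or test, library size only, other filters, limma 3.58.1 on the deposited log2 values (pseudocount 1), a replicate block and each library left out. A length offset was added after seeing the data. Deposited values unlogged with a pseudocount of 1 gave, with the counts, a gene factor taken as length proxy (99.6% of values with at least 20 counts within 0.05 log2 units). The fit was tested on simulated data. Reads carry no molecular identifiers, and the number of libraries limits the precision. Named genes were the members, the other Toll-like receptor, adaptor and IRAK genes and the 3 smallest p of each list. Members and lists were chosen with earlier results of these data known. Of the listed genes, Ticam1, Tlr13, Tirap, Tab3, Relb, Rel, Tnfaip3, Tnip3 and Ccr2 were not analysed here.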

Additional observations from a re-analysis of the deposited data

How the results depend on the processing

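Of 124 values of the 9 members under the alternatives, 114 kept their direction and side of the threshold, 8 lost the call (Tlr7 and Irak4, most by leaving out 1 library) and 2 reversed, those of Tlr3 at 0.02 without PSNPs replicate 3 and 0.09 with the length offset (from −0.3 to 0.02 with 1 library left out). Among 27 other named genes, Sarm1 was at 0.01 without PSNPs replicate 3 and 0.2 with the length offset, and Irak2 at 0.03 without PSNPs replicate 2 and 0.12 with the length offset, none of them called. With 1 library left out, Sarm1 lay between −0.2 and 0.01 and Irak2 between −0.15 and 0.03. The length offset also moved the median of all tested genes, from −0.01 to 0.09. The cause of these reversals was not tested. Leaving out 1 library gave between 2 and 3 members higher and between 0 and 1 lower, between 10 and 22 other pathway genes higher and between 13 and 30 lower, and between 1339 and 3591 of all genes higher and between 1473 and 3478 lower. The lowest counts of all genes came without IR-813 replicate 2, and 1416 higher and 1571 lower without IR-813 replicate 1, while the highest came without PSNPs replicate 3. With a mean of at least 10 CPM, 7 other pathway genes were called higher, fewer genes being tested, and Tlr4, Ly96 and all but 2 genes of the TRIF list were not among them. On the deposited log2 scale, whose pseudocount understates low genes, the folds of Tlr1 (−0.45), Tlr9 (−0.55), Cd36 (1.89), Nos2 (1.07) and Cxcl11 (0.64) were smaller by over 1.5 times.

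Deviations of same-numbered libraries correlated at 0.007, 0.015 and 0.138 over 11679 genes, beside 0.223 for PSNPs replicate 2 with IR-813 replicate 1. Deviations from a mean of 3 libraries are tied to each other, so these values cannot decide whether the numbers mark a pairing. With the replicate block, 3 members were called higher and 0 lower by edgeR (1 at an unadjusted p under 0.05, Tlr7 at −0.97 with an adjusted p of 0.0568, where DESeq2 without the block called 1), 15 and 18 other pathway genes, and 2035 and 2124 of all genes. Not every library correlated best with its own number. Among the tested Toll-like receptors and the co-receptors Cd14 and Ly96, the lowest counts were those of Tlr1 (1 to 37), Tlr9 (25 to 104) and Ly96 (67 to 136). What depth adds to their error was not tested.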

Other observations

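Unc93b1, which carries Tlr3, Tlr7 and Tlr9 to endosomes, averaged 114 ± 17.9 CPM with PSNPs and 102.5 ± 10.9 CPM with IR-813 (SD, n = 3 each), and its groups overlapped. Tril, a co-receptor known from brain cells, averaged 205 ± 18.8 CPM with PSNPs and 215 ± 44.6 CPM with IR-813 (SD, n = 3 each), also with overlap. The Tlr4-like receptor Cd180 and its partner Ly86 averaged 27.8 ± 3.69 and 6.89 ± 1.52 CPM with PSNPs and 38.7 ± 7.90 and 11.5 ± 2.64 CPM with IR-813 (SD, n = 3 each). All PSNPs libraries were under all IR-813 libraries for both, and Ly86 passed edgeR's test with an adjusted p of 0.0425, while Cd180 did not with 0.0616. These 4 genes were named after their values were seen.

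Map3k7, which encodes the broadly expressed kinase TAK1 of this pathway, had 3, 2 and 2 counts in PSNPs libraries and 4, 0 and 2 counts in IR-813 libraries. Tlr10, Ifnb1 and Ifit1 are listed at 0 counts in all libraries.

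Among 9709 tested genes with a mean of at least 5 CPM, the log2 CPM over the 6 libraries most like that of Tlr7 was found for Dock8 (Pearson 0.997), Scn7a (0.996) and Naa40 (0.996), and most like that of Tlr4 for St3gal1 (0.996), Zfp39 (0.993) and Npap60 (0.991). The 6 points share the treatment and the departure of PSNPs replicate 3, and these values are a description.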
